A study of Equus caballus with 93 samples.

Results

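The 150 genes described here were lower in cells of the joint fluid at week 2 after carpal surgery and were still lower, on average, over weeks 4 to 10. They were chosen by their measured values out of 15838 genes, from the mean log2 CPM (reads scaled to library size, on a log2 scale) of each week with both arms pooled. A gene had to average 1 or more, differ from week 0 by -1 or less at week 2 and keep 0.67 or more of that difference in the mean of weeks 4 to 10. Of 11818 genes with a mean of 1 or more, 857 had a week 2 difference of -1 or less and 273 of these kept it, and the 150 with the lowest week 2 difference form the set. The rule also left out 6 identifiers, of which 0 met its other conditions.

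The libraries come from 16 horses of 2 to 5 years, 7 mares and 9 geldings, each with an osteochondral fragment made surgically in a middle carpal joint, a model of osteoarthritis. At week 2 the operated joint received 2 mL of phosphate buffered saline (Control, 8 horses) or of iPAAG, a 2.5% injectable polyacrylamide hydrogel (8 horses), and all horses were exercised from week 2 on. Fluid was drawn at weeks 0 (before surgery), 2, 4, 6, 8 and 10, and RNA of the pelleted cells was sequenced, which gave 93 libraries. Whether fluid or injection came first at week 2 is not stated in the labels. All horses of both arms carried a fragment, and the sham-operated joints were not analysed here, so surgery and elapsed time cannot be told apart in the change to week 2, nor can exercise be told apart from them in the later weeks.

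Healthy joint fluid holds few cells, mostly macrophages and other mononuclear cells shed from or passing through the synovial lining, and after an injury to the joint more leukocytes enter it. RNA from the pelleted cells is therefore a mixture, and a gene can fall because a cell type makes less of it or because that type becomes a smaller part of the pellet. In such bulk samples fewer cells of a type and less RNA per cell cannot be told apart. The deposited table names genes by Ensembl horse identifiers alone, and 0 of its 15838 identifiers could be paired with a symbol, so no role is given to any gene, the cell types could not be checked against markers, and at most 2 lower and 2 rising genes are named.

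The libraries were of 2 kinds. In 70 of them, called wide, the SD of log2 CPM over all genes was 2.19 to 4.21, and in 23, called flat, it was 1.20 to 1.90, with no library between. The rule used the wide libraries only. The wide libraries held 6076026 to 39916655 recovered reads and the flat ones 1737741 to 12597216. Among iPAAG libraries, those of week 4 included 4 flat ones of 7, those of week 6 included 4 of 8 and those of week 10 included 6 of 8. Only 3, 4 and 2 wide libraries therefore stand behind these groups.

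The 150 genes leaned towards lower abundance. By week 0 level, their median percentile among genes with a mean of 1 or more was 38.6. Their week 0 means ran from 1.97 to 7.93 log2 CPM with a median of 4.35, against 4.98 for all genes with a mean of 1 or more, and 55 of the 150 lay above the median of those genes. The median member had 535 reads in a week 0 library and 153 in a week 2 library, and the member with the fewest had a median of 85 and 24.5. Together they took a median of 0.657% of a library's reads at week 0 and 0.171% at week 2. Within groups the median SD of a member over libraries was 0.90 log2, against 0.40 for all genes with a mean of 1 or more.

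The values that chose the genes are given here as a description, without a test. Over the 150 genes the week 2 difference from week 0 ranged from -3.30 to -1.23 with a median of -1.46 (2.74-fold lower), and 14 genes had a value of -2 or less. The mean difference over weeks 4 to 10 ranged from -2.85 to -0.85 with a median of -1.20 (2.30-fold lower), and the median gene kept 77.2% of its week 2 difference. At the edge of the set, the genes ranked 148 to 150 had week 2 differences of -1.228, -1.227 and -1.226 and those ranked 151 to 153 had -1.225, -1.224 and -1.223, so the last members are like the first genes left out. Of 529 genes with a mean of 1 or more and a week 2 difference as low as any member's, the other 379 did not meet the condition on the later weeks.

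Within the set, the median week 2 difference was of like size at low, middle and high abundance. Every member was chosen for a low value of this same difference, which brings these medians close together. They therefore cannot show whether the difference depends on abundance. The 50 genes with the lowest week 0 level (1.97 to 3.40 log2 CPM) had a median week 2 difference of -1.42, the next 50 had -1.45 and the 50 with the highest level (5.15 to 7.93) had -1.47. Their medians over weeks 4 to 10 were -1.18, -1.24 and -1.20. For all genes with a mean of 1 or more, the median difference was -0.01 at week 2 and between -0.04 and -0.02 at weeks 4 to 10.

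By single week, the set's depth varied. With the arms pooled, the median difference from week 0 was -1.46 at week 2 and smaller at weeks 4 and 6 (-0.92 and -1.02). It was larger again at weeks 8 and 10 (-1.26 and -1.61). The share of wide libraries from each arm changed between weeks, and the arms did not follow the same course. At weeks 4, 6, 8 and 10 the medians were -0.86, -0.98, -0.79 and -1.47 in Control horses. In iPAAG horses they were -1.16, -1.05, -1.75 and -2.13. The mean of 149 of the 150 genes was below its week 0 mean at every later week, and 123 were below by 0.5 or more at every one. Week 10 held the lowest weekly mean of 84 genes, week 2 that of 38, week 4 that of 17 and week 8 that of 11. The mean spread of the wide libraries moved little over these weeks, between 3.27 and 3.53. Their median reads were highest at week 0, at 29443605, and lower at every later week, between 19156757 and 24769543. The bearing of depth on the set's levels was not tested.

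**Figure D1:**
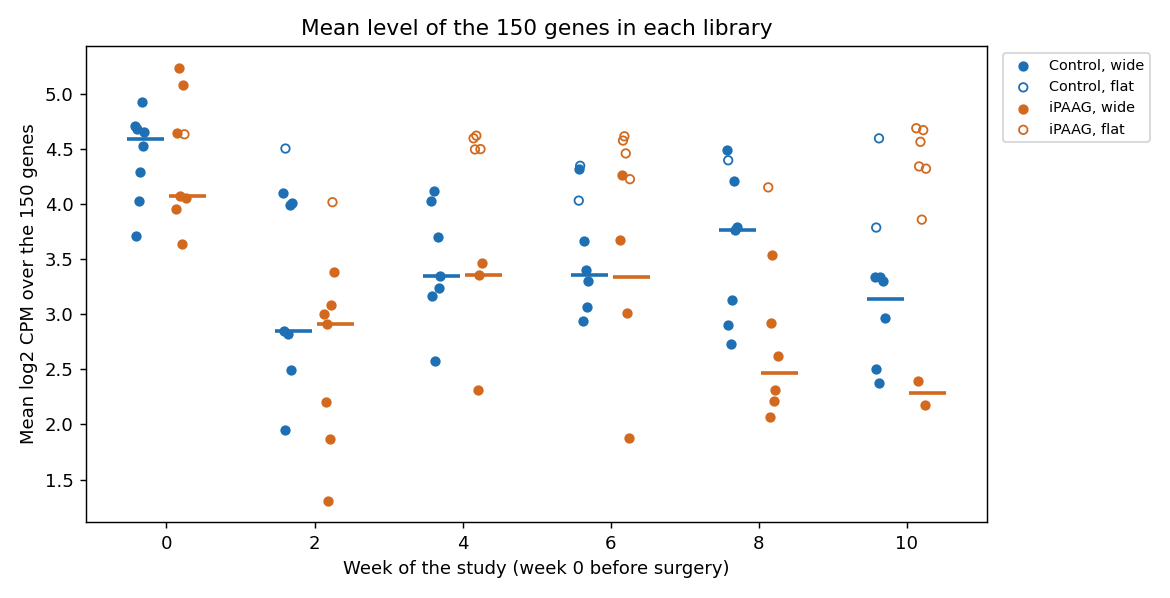
Mean log2 CPM over the 150 genes in each of the 93 libraries (vertical axis) by week (horizontal axis), Control in blue and iPAAG in orange; filled points are wide libraries, open points flat ones, and bars are medians of the wide libraries of a group. The week 2 wide libraries reach from 1.31 to 4.10 against 3.64 to 5.24 at week 0, and the flat libraries of weeks 2 to 10 lie between 3.79 and 4.69.

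The mean level over the 150 genes shows how single libraries behaved. At week 0 it was 3.64 in the lowest, 4.53 in the median and 5.24 in the highest of 15 wide libraries. At week 2 these values were 1.31, 2.88 and 4.10 over 14 libraries. Most week 2 libraries lay below the lowest week 0 library, though the ranges overlap. The medians at weeks 4, 6, 8 and 10 were 3.35, 3.35, 2.92 and 2.73, and the highest library of weeks 4 to 8 lay inside the week 0 range each time. Only at week 10, with 8 wide libraries between 2.17 and 3.34, did no library reach the lowest of week 0. The median over all genes of a wide library stayed between 3.72 and 4.21.

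Within horses, the median gene of the set was lower at week 2 in each horse with a usable pair, by unequal amounts. In the 14 horses with wide libraries at weeks 0 and 2, between 105 and 150 of the 150 genes were lower than in the horse's own week 0 library, while 40.1% to 58.1% of all genes with a mean of 1 or more were. The median change was smallest in Control horse 1 (-0.39), Control horse 16 (-0.52) and iPAAG horse 3 (-0.58), and largest in Control horse 9 (-2.79), iPAAG horse 7 (-2.70) and iPAAG horse 6 (-2.47). Both arms thus held horses with small and with large changes. Of the 150 genes, 48 (32.0%) were lower in all 14 horses, against 3.60% of all genes with a mean of 1 or more, and each was lower in at least 9. These shares follow from the rule, and nothing is read from them.

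The later weeks also differed between horses. For the mean of a horse's wide libraries at weeks 4 to 10, the median change was negative in 14 of 15 horses, from -2.55 in iPAAG horse 6 to -0.30 in Control horse 9, and 0.19 in iPAAG horse 3. Horses 3, 6, 7 and 9 had 1 wide library each in that time, so their later values rest on it. The change went from -2.79 at week 2 to -0.30 later in horse 9 and from -2.70 to -0.47 in horse 7, while in horse 12 it was -2.15 and then -2.16. The number of genes lower in all 15 horses was 15, or 10.0%, against 1.02% of all genes with a mean of 1 or more, and the rule again sets these shares.

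**Figure D2:**
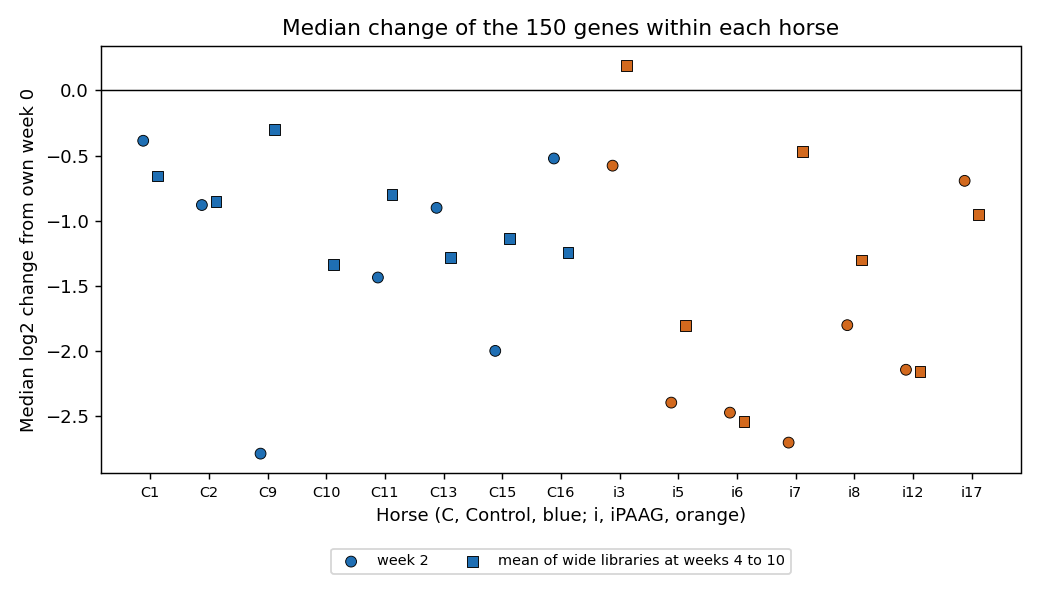
Median log2 change of the 150 genes from the horse's own week 0 library (vertical axis) for each of 15 horses with a wide week 0 library (horizontal axis); circles are week 2 and squares the mean of wide libraries at weeks 4 to 10. Every circle lies below 0, and the only square above 0 is iPAAG horse 3 at 0.19.

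In the level of the set, some horses lay on the same side of their arm-by-week mean in every wide library they had. That mean includes the horse itself. Control horse 1 was above the mean of its arm and week in all 6 of its wide libraries, by 0.65 log2 on average, and iPAAG horse 6 in all 3, by 0.51. Control horse 10 was below in 5 of 5, by -0.65, Control horse 2 in 5 of 5, by -0.50, and iPAAG horse 8 in 4 of 4, by -0.64. Horse 10 had the lowest Control library at weeks 4, 6, 8 and 10. These differences between animals were not tested.

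The rule compared means of weeks and did not directly use how the genes move together within a week. Genes that share shifts between libraries also share shifts of weekly means, so a choice by low means favours them. The r values of the set are therefore not separate from the rule. The value over all genes averages positive and negative r. Over the 70 wide libraries, deviations from the arm-by-week means had a mean pairwise Pearson r of 0.44 between the 150 genes, against 0.02 between all genes with a mean of 1 or more. In the 15 week 0 libraries alone, before surgery, the mean r was 0.38 against 0.03. A gene's r with the mean of the other 149 had a median of 0.75, was above 0.5 for 122 genes and below 0 for 7. Most of the set thus varied together between libraries of a group, with a minority that did not, and the mean r was of like size before any joint was operated on. These are descriptions over libraries that share horses, and the set's mean had an r of -0.33 with library spread and 0.08 with log2 reads over the same deviations.

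Outside the set, 379 of 11668 other genes with a mean of 1 or more (3.25%) had weekly means with an r of 0.9 or more to the set's mean profile over the 6 weeks. Of these, 287 had a week 2 difference above -1, with a median over all 379 of -0.70. Most genes with a like profile thus had smaller week 2 differences than the rule asked for. Within the set 94 of 150 genes reached that r, and the lowest was 0.27.

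ENSECAG00000021590 had the lowest week 2 difference of the set. At week 0 its log2 CPM was 1.40 in the lowest, 4.21 in the median and 5.46 in the highest of 8 Control libraries, and 2.33, 4.77 and 5.10 over 7 iPAAG libraries. At week 2 the values were -0.74, 0.20 and 1.66 over 7 Control libraries and -1.43, 0.64 and 2.68 over 7 iPAAG libraries. The arms overlapped at both times, and the Control ranges of weeks 0 and 2 overlapped only through the lowest week 0 library, that of horse 2.

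Later values of this gene stayed low with wide ranges. In Control horses the week 4 median was -0.79 (7 libraries, -3.14 to 1.89) and the week 6 median 1.38 (6 libraries, -0.14 to 2.41). The week 8 median was 0.29 (7 libraries, -2.20 to 2.98) and the week 10 median 2.04 (6 libraries, -0.73 to 3.38). In iPAAG horses it was -0.52, 0.68 and 2.87 in the 3 libraries of week 4, and 3.04, 0.25, 2.15 and 0.60 in horses 3, 5, 12 and 14 at week 6. At week 8 the 6 iPAAG libraries ran from 0.09 to 3.88, and at week 10 the 2 libraries held 2.44 and 0.72. Every later median lay more than 2 log2 below the week 0 median of its arm. The difference from week 0 was -3.30 at week 2 and -2.85 over weeks 4 to 10, lower in 13 of 14 and 14 of 15 horses.

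ENSECAG00000056292 was next in the ranking. At week 0 it ranged from 2.57 to 5.21 with a median of 3.97 in Control and from 0.82 to 5.99 with a median of 2.86 in iPAAG horses. At week 2 the ranges were -2.25 to 3.78 with a median of 2.05 and -1.43 to 1.59 with a median of 1.24. It was lower at week 2 in 14 of 14 horses, although the ranges of weeks 0 and 2 overlapped in both arms. Its pooled means at weeks 4 to 10 lay at or below 1.92, against 3.76 at week 0 and 1.06 at week 2, and 73.9% of the week 2 difference was kept.

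The first comparison asked whether the arms differed, which the rule did not use directly, since it pooled them. At each of weeks 4 to 10 more wide libraries were from Control horses, which therefore weighed more in the rule. The later differences between arms are thus not wholly separate from it. Each arm's own change from week 0 is part of the values that chose the genes and is given as a description. In Control horses the median week 2 difference over the 150 genes was -1.20, with all 150 genes lower. In iPAAG horses it was -1.84, also with all 150 lower. Of all genes with a mean of 1 or more, 48.8% and 52.1% were lower. For weeks 4 to 10 the medians were -1.01 and -1.55, with 149 and 150 genes lower, beside 52.0% and 56.5% of those genes. With all 93 libraries, the iPAAG median for these weeks was -0.81. The difference between arms in the week 2 change was negative for 130 of 150 genes, with a median of -0.59 and a median SE of 0.62, against 54.1% of all genes and a median of -0.04. No gene of the set was called by limma (adjusted p below 0.05; 0 of 150, against 0.0% of all 15838 genes), and 6 had an unadjusted p below 0.05 (4.0%, against 3.99% of all genes). With 1 horse left out the median ranged from -0.85 to -0.45. In libraries with a spread of 3 or more the median was -1.15, with 54 members at an unadjusted p below 0.05 (36%, against 9.63% of all genes) and 0 called.

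Before surgery the arms' levels lay close together. The set's mean in a week 0 library was 4.44 ± 0.40 (SD, n = 8) for Control horses, and 4.38 ± 0.61 (SD, n = 7) for iPAAG horses. The week 2 values were 3.17 ± 0.86 (SD, n = 7) for Control and 2.54 ± 0.76 (SD, n = 7) for iPAAG, with ranges of 1.95 to 4.10 and 1.31 to 3.38 that overlap over most of their length. The week 8 values were 3.57 ± 0.67 (SD, n = 7) for Control and 2.61 ± 0.55 (SD, n = 6) for iPAAG, again with overlapping ranges (2.73 to 4.49 and 2.07 to 3.54).

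The treatment question is the arms' difference in change from week 2 to weeks 4 to 10. For the 150 genes it had a median of 0.11 with a median SE of 0.53, against a median of -0.09 over all genes. It was positive for 92 of the 150 (61.3%, against 40.2% of all genes). By limma 0 of the 150 genes were called, against 0.0% of all genes, and 5 had an unadjusted p below 0.05 (3.33%, against 10.6% of all genes). With only genes of a mean of 1 or more tested, 5 members and 6.84% of those genes did. The sign of the median depended on single horses: it was -0.12 without iPAAG horse 7, -0.06 without Control horse 16 and 0.39 without Control horse 9, with 53, 64 and 114 genes positive. It was close to 0 without iPAAG horse 5 and Control horses 10 and 13 in turn (0.01 each). For weeks 4, 6, 8 and 10 singly, the median differences were 0.27, 0.56, -0.33 and 0.02. They did not share a sign, although in libraries with a spread of 3 or more all were positive (0.72, 0.70, 0.35 and 0.50), with a median of 0.58 for weeks 4 to 10 together. No member was called at any of these weeks (limma, adjusted p below 0.05), where 0.0126%, 0.909%, 0.0% and 0.0% of all genes were (0.783% higher and 0.126% lower at week 6), and 3, 21, 6 and 3 members had an unadjusted p below 0.05. These are 2.0%, 14.0%, 4.0% and 2.0% of the set, beside 7.49%, 19.4%, 8.69% and 1.65% of all genes. Among genes with a mean of 1 or more, tested alone, the shares were 5.61%, 19.4%, 4.45% and 1.59%. The differences for weeks 4 to 10 and those of the week 2 change share the week 2 libraries. Over weeks 4 to 10 together, the difference for ENSECAG00000021590 was 0.31 ± 0.85 (SE, limma adjusted p = 0.916) and for ENSECAG00000056292 0.14 ± 0.85 (SE, limma adjusted p = 0.962). For ENSECAG00000020974 it was -0.17 ± 0.89 (SE, limma adjusted p = 0.956). For ENSECAG00000019551 it was -2.05 ± 0.78 (SE, limma adjusted p = 0.363), the lowest of the set. With all 93 libraries 4 members were called at week 4, all higher, beside 22.9% of all genes (2.46% higher, 20.5% lower), and the median for weeks 4 to 10 was 0.73. At week 4, 4 of 7 iPAAG libraries were flat. At the other weeks 0 members were called.

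The second comparison asked whether the genes went on changing between weeks 4 and 10. The rule used the mean of these weeks and not their order. A low value in any of them still helped a gene to qualify. Week 10 had the fewest wide libraries, 8, and a low mean there also makes a slope negative. The counts are therefore not fully separate from the rule. The slope per 2-week step, averaged over the arms, had a median of -0.28 over the 150 genes and was negative in 127, against a median of 0.00 and 49.2% negative over all genes. By limma (adjusted p below 0.05) 43 genes declined further and 12 rose. That is 28.7% and 8.0% of the set, beside 12.5% of all genes called lower and 12% called higher, or 24.5% in either direction. With only genes of a mean of 1 or more tested, 50 members declined and 12 rose, beside 16.2% and 15.1% of those genes. The arms' difference in slope was called for 0 of the 150 genes, against 0.0% of all genes. For 6 members the unadjusted p was below 0.05 (limma, 4.0%, against 3.76% of all genes).

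The count of declining genes depended on single horses and on the libraries used. Only iPAAG horses 5 and 14 had wide libraries at week 10, and without horse 5, which left 1 iPAAG library there that was assumed to vary like the others, 2 members declined and 2 rose, with 1.98% and 1.16% of all genes called, 3.14% in all. In Control horses alone, with 6 or 7 libraries a week, 5 members declined and 9 rose, beside 8.17% and 5.96% of all genes, 14.1% in all, with a median slope of -0.17. In iPAAG horses alone 1 member declined and 0 rose, beside 0.96% of all genes in either direction (0.36% higher, 0.6% lower). With horse as a fixed replicate block 18 declined and 13 rose, beside 23.0% of all genes (11.5% higher, 11.6% lower). With precision weights 13 declined and 8 rose, beside 21.2% of all genes (11.6% higher, 9.61% lower). With all 93 libraries 7 declined and 6 rose, beside 8.85% of all genes (5.08% higher, 3.77% lower). Without week 10 the counts were 6 and 11, beside 18.6% of all genes (10.7% higher, 7.93% lower). Within horses that had 3 or 4 wide libraries in this time, the median slope over the 150 genes was negative in 7 of 9, from -1.05 in iPAAG horse 5 and -0.59 in iPAAG horse 12 to 0.26 in Control horse 13.

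**Figure D3:**
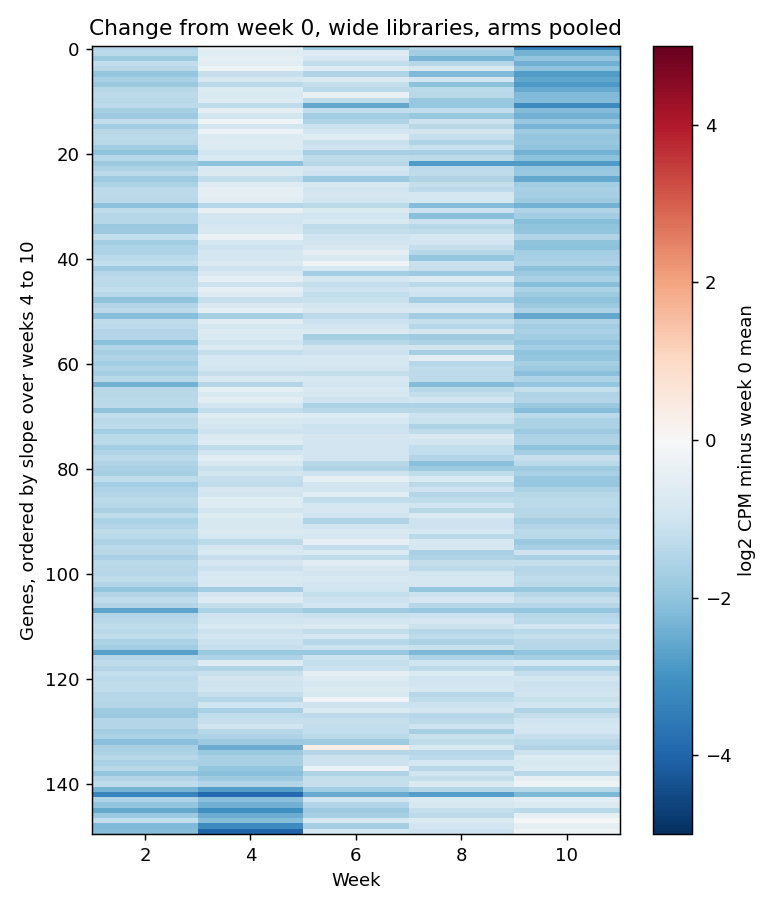
Difference of each gene's mean log2 CPM from its week 0 mean in wide libraries, arms pooled (colour), for weeks 2 to 10 (horizontal axis) and the 150 genes ordered by the slope of these means over weeks 4 to 10 (vertical axis, steepest decline at the top). At each week 149 or 150 genes are below 0; genes at the top are lowest at week 10 and most of the few at the bottom at week 4.

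The genes called as declining and those called as rising followed different courses. The 43 declining genes had median levels of 5.25, 3.67, 4.48, 4.16, 4.02 and 3.15 at weeks 0, 2, 4, 6, 8 and 10, and 40 of them were lowest at week 10. The 12 rising genes had medians of 3.64, 2.16, 1.00, 2.44, 2.72 and 3.30 at the same weeks, and 11 of them were lowest at week 4. The rising genes therefore had their lowest median at week 4. By week 10 their median difference from week 0 was -0.50, while that of the declining genes was -1.96. The 12 include 5 of the 20 genes with the lowest week 2 differences.

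In each arm the median of the rising genes was higher, and that of the declining genes lower, at week 10 than at week 4. The rising genes' medians at weeks 2, 4 and 10 were 1.73, 0.80 and 3.27 in Control horses, and 2.30, 1.24 and 3.39 in iPAAG horses. The declining genes' medians at weeks 4, 6, 8 and 10 were 4.84, 4.14, 4.57 and 3.37 in Control horses. In iPAAG horses they were 3.98, 4.23, 3.21 and 2.46. The course between the end weeks was thus uneven and differed between the arms. Library by library, the mean of the rising genes at week 4 was 0.49 to 3.07 in 7 Control and 1.07 to 2.25 in 3 iPAAG libraries. At week 10 it was 2.48 to 3.94 in 6 Control libraries, and 2.73 and 3.80 in the 2 iPAAG libraries. For these genes the iPAAG libraries of the 2 weeks did not overlap, and the Control libraries did. Over deviations from group means in 70 wide libraries, the mean of the rising genes had an r of -0.02 with the mean of the declining genes. Both groups were formed from their slopes, and these are descriptions.

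ENSECAG00000020974 had the steepest rise, 1.15 ± 0.24 log2 per 2-week step (SE, limma adjusted p = 0.00075). In Control horses its log2 CPM was 1.11 to 5.74 with a median of 4.76 at week 0 (8 libraries), 0.13 to 3.92 with a median of 1.32 at week 2 (7), and -4.73 to 3.14 with a median of -0.26 at week 4 (7). It was 0.51 to 4.17 with a median of 3.97 at week 6 (6), 0.02 to 4.62 with a median of 3.14 at week 8 (7) and 1.69 to 4.61 with a median of 4.13 at week 10 (6). The lowest week 4 library held no read of it. The medians of weeks 6, 8 and 10 thus lay between those of weeks 2 and 0.

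In iPAAG horses the same gene was 1.28 to 6.40 with a median of 5.22 at week 0 (7 libraries) and 1.67 to 4.43 with a median of 2.96 at week 2 (7). Its values were 1.16, 1.54 and 2.14 at week 4, and 4.41, 1.83, 4.74 and 3.13 in horses 3, 5, 12 and 14 at week 6. At week 8 it was 3.28 to 5.24 (6 libraries), and at week 10 it was 5.27 and 4.75. All 3 libraries of week 4 lay below all of weeks 8 and 10. The slope, by which the gene was chosen, was positive in 9 of 9 horses with 3 or 4 wide libraries in this time. The arms' difference in slope was -0.01 ± 0.47 (SE, limma adjusted p = 0.9997).

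ENSECAG00000019551 rose by 0.92 ± 0.21 log2 per step (SE, limma adjusted p = 0.0014). Its mean over both arms was 2.75 ± 1.49 (SD, n = 15) at week 0 and 0.54 ± 1.43 (SD, n = 14) at week 2. Weeks 4 and 6 had means of -0.41 ± 1.44 (SD, n = 10) and 1.07 ± 1.45 (SD, n = 10), and weeks 8 and 10 had 1.78 ± 1.15 (SD, n = 13) and 2.27 ± 0.40 (SD, n = 8). At week 10 the 8 libraries lay between 1.64 and 2.97, and all of them were above every week 4 library, whose highest was 1.23. Its median was 13.5 reads at week 4, so single values there carry visible counting error. The slope was positive in 9 of 9 horses. Both this gene and ENSECAG00000020974 were picked as the largest called rises in these same libraries. That choice favours positive slopes in single horses, week 10 values above those of week 4 and calls in refits. None of these is a separate test. Both rises were called in 26 of 27 alternative settings and missed the threshold in the iPAAG horses alone, where the slopes were 1.14 (limma adjusted p = 0.106) for ENSECAG00000020974 and 1.11 (limma adjusted p = 0.079) for ENSECAG00000019551.

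**Figure D4:**
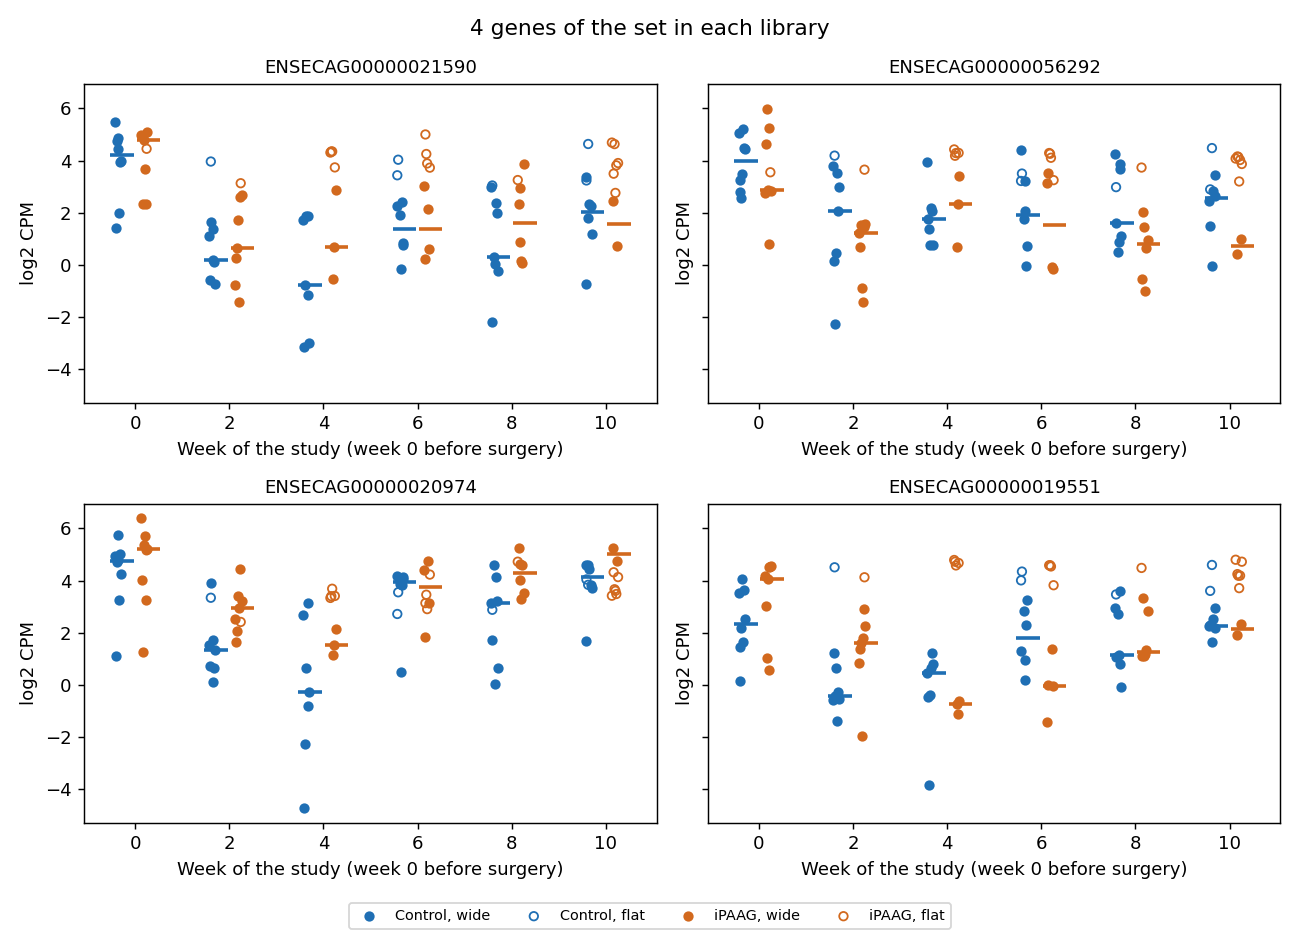
log2 CPM (vertical axis) of 4 genes of the set in each library by week (horizontal axis), Control in blue and iPAAG in orange; filled points are wide libraries, open points flat ones, bars are medians of the wide libraries of a group. The upper pair has the lowest week 2 differences of the set (-3.30 and -2.70); the lower pair has the steepest rises from week 4 to week 10 (1.15 and 0.92 per 2-week step).

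The flat libraries, which the rule left out, did not show the low levels. The mean over the 150 genes was 3.79 in the lowest, 4.48 in the median and 4.69 in the highest of the 22 flat libraries of weeks 2 to 10. In the 55 wide libraries of these weeks the same values were 1.31, 3.09 and 4.49. The rule chose the genes for low values in these wide libraries. A median of 70.5 of the 150 genes lay below their own week 0 mean in a flat library, against 143 in a wide one, and the single flat library of week 0 had 66. The set's mean in flat libraries was thus close to that of week 0 libraries of either kind. The median over all genes was not the same, however. It was 4.43 in the median flat library of weeks 2 to 10 and 4.09 in the median wide library of week 0. Flat libraries also had a narrower spread over all genes. A like mean therefore does not show that the genes were at their week 0 levels in flat libraries.

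Most genes differ between the 2 kinds of library. With arm and week in the model, 108 of the 150 genes were higher and 14 lower in flat libraries by limma (adjusted p below 0.05). That is 81.3% in either direction beside 90.1% of all genes. The set was chosen for low means in wide libraries taken after surgery. That choice favours higher values in flat libraries, so the set's counts and median difference are not a separate test. The median difference was 1.41 over the set and 0.09 over all genes, with 46.5% of all genes called higher and 43.6% lower. With only genes of a mean of 1 or more tested, their median was -0.52, with 29.4% called higher and 58.2% lower. Within the set the difference followed the level of a gene. For the 94 members with a mean below 4 log2 CPM the median was 2.03 and 88 were higher. For the 56 with a mean of 4 or more it was 0.13, with 20 higher and 14 lower. The r between a gene's difference and its mean level was -0.79 over the 150 genes, which are not independent. When the rule was applied to all 93 libraries, 64 of the 150 genes were chosen again.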

How the data were processed

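Total RNA of cells pelleted from joint fluid was sequenced after a stranded low-input library preparation, per the labels' protocols. The authors deposited 1 table of log2 CPM values from voom, per the file's name, for 15838 genes in 93 libraries. STAR 2.7.10b, limma 3.62.2 and the build EquCab3.0 are named in the submitters' processing notes. The sources used here do not state the counting, strand use, annotation release or filters, so reads of overlapping genes or near-identical copies may be shared. The lowest value of a library gives what 1 read is worth. On that scale 100.0% of values were whole reads within 0.05, after 0.5 reads were added to each count.

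Arm, horse and week came from the titles. Of 315 library pairs within groups 0 were identical (smallest chi-square per degree of freedom 9.44). All libraries of a horse come from 1 animal, so the horses pair the samples: deviations from group means had a mean r of 0.10 within and -0.01 between horses. Each horse is 1 replicate.

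Tests used limma 3.58.1 in R 4.3.3 on the log2 values of all genes in the 70 wide libraries: 12 arm-by-week means, horse as a random block (consensus correlation 0.09), a mean-variance trend and Benjamini-Hochberg adjustment over all genes. Flat and wide libraries were compared in all 93. The fit was tested on simulated data. Python 3.11.15 with numpy 2.4.6, pandas 2.3.3 and matplotlib 3.10.9 gave the descriptions and plots.

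The genes and comparisons were chosen with earlier results of these data known. Named genes are the 2 with the lowest week 2 difference and the 2 with the largest called rise over weeks 4 to 10. Alternatives changed the libraries used, the block, weights, centring and filter, or left out 1 horse.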

Additional observations from a re-analysis of the deposited data

Results flagged for a closer look

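In 50 groups of 4 to 8 wide libraries, over the set's mean and the 4 named genes, 5 values stood apart from the rest of their group by Dixon's criterion, which chance meets in about 1 in 20 groups. None of the 5 was a value of the set's mean. ENSECAG00000020974 was 3.92 log2 CPM in Control horse 9 at week 2, with the other 6 libraries at 0.13 to 1.74. It was 0.51 in Control horse 11 at week 6, with the other 5 at 3.82 to 4.17, and 1.69 in Control horse 2 at week 10, with the other 5 at 3.72 to 4.61. ENSECAG00000019551 was -3.84 in Control horse 9 at week 4, with the other 6 libraries at -0.48 to 1.23, and -1.95 in iPAAG horse 7 at week 2, with the other 6 at 0.86 to 2.92. These libraries held 20964715 to 28535566 reads and had a spread of 3.58 to 3.97. Without Control horse 9 the 2 rises over weeks 4 to 10 remained called.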

How the results depend on the processing

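The count of members whose level changed over weeks 4 to 10, 55 of 150, depended most on the setting. It was 13 with all 93 libraries, 31 with horse as a fixed replicate block, where the pairing is by animal, and 21 with precision weights (14.0% of the set, beside 21.2% of all genes). It was 14 in Control horses alone, 1 in iPAAG horses alone and 17 without week 10, 3 settings chosen after seeing the data. With 1 horse left out it ranged from 4 to 65, with 4 without iPAAG horse 5, 29 without iPAAG horse 12, 30 without iPAAG horse 17 and 35 without Control horse 2, beside 3.14%, 18.1%, 19.2% and 19.8% of all genes. The cause was not tested. The arms' difference at week 4 gave 4 called members with all 93 libraries in place of 0, beside 22.9% of all genes, and at week 6 between 0 and 5 with 1 horse left out (5 without Control horse 9, beside 5.20% of all genes, and 2 without iPAAG horse 14, beside 2.29%). The other arm comparisons gave 0 called members under every alternative run, and the comparison of flat with wide libraries 116 to 125. The set itself depended on the libraries in the rule: 64 of 150 genes were shared with the set from all 93. The arms' median differences from week 0 kept their sign in every alternative run. With 1 horse left out, the week 2 median ranged from -1.34 to -0.92 in Control and from -2.02 to -1.66 in iPAAG horses. ENSECAG00000021590 passed the threshold for a rise only with the fixed replicate block (0.54, limma adjusted p = 0.0441). Wide iPAAG libraries at weeks 4 and 10 (3 and 2) limit the statements on that arm at these weeks.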
